A study of Mus musculus with 6 samples.

Results

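The receptors through which blood cells read their growth factors were followed in CD11b+Gr1+ leukemic spleen cells of mice with and without the ribosomal protein Rpl22. The members were fixed by name as the 9 genes Kit, Flt3, Csf1r, Csf3r, Epor, Il3ra, Csf2ra, Il6ra and Csf2rb, out of 29347 genes that had at least 1 estimated read. All 9 were among the 16656 genes that had enough reads to be tested. Mll-AF9 mice with tumors gave the spleen cells, of which the CD11b+Gr1+ fraction was sorted by flow cytometry and its poly(A) RNA sequenced. Both genotypes carried the Mll-AF9 fusion, a knockin allele that drives acute myeloid leukemia, and they differed in Rpl22: 3 libraries were Rpl22+/+ and 3 were Rpl22-/-. The study's text describes the sequenced explants by 1 mouse identifier per genotype and the sample labels do not tie the libraries to animals, so p-values measure the spread between libraries, which may be technical, and Rpl22 cannot be told apart from other differences between the leukemias. The labels name no treatment. The study worked with young adult Rpl22+/+ and Rpl22-/- mice on a C57BL/6 background, and the age at which each leukemic spleen was taken was not stated for these libraries.

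Hematopoietic growth factor receptors fall into a few structural classes. Kit, Flt3 and Csf1r are class III receptor tyrosine kinases whose own kinase domain is switched on when the ligand pairs 2 copies of the receptor. Csf3r and Epor pair as single-chain cytokine receptors, and Il3ra, Csf2ra and Il6ra are ligand-binding alpha chains that signal only with a partner: Csf2rb, the common beta chain, for interleukin-3 and GM-CSF, and Il6st, known as gp130, for interleukin-6. The cytokine receptors lack a kinase of their own and use Janus kinases, which phosphorylate Stat proteins, and in myeloid cells these receptors set survival, division and the choice of lineage.

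In the authors' GRCm39 positions, Kit (ENSMUSG00000005672) lies at chr5:75735576-75817382 on the plus strand, Flt3 (ENSMUSG00000042817) lies at chr5:147267551-147337299 on the minus strand, Csf1r (ENSMUSG00000024621) lies at chr18:61233670-61265221 on the plus strand. The cytokine receptor genes are Csf3r (ENSMUSG00000028859) at chr4:125918343-125938233 (plus), Epor (ENSMUSG00000006235) at chr9:21870193-21874802 (minus), Il3ra (ENSMUSG00000068758) at chr14:8113752-8123488 (minus), Csf2ra (ENSMUSG00000059326) at chr19:61212395-61216867 (minus), Il6ra (ENSMUSG00000027947) at chr3:89771366-89820503 (minus) and Csf2rb (ENSMUSG00000071713) at chr15:78209952-78238047 (plus), with its paralog Csf2rb2 beside it at chr15:78166707-78189921 on the opposite strand.

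Of the 9 receptors, 7 differed between the genotypes, in both directions. A gene was called when its Benjamini-Hochberg adjusted p over all genes tested was under 0.05 in edgeR's quasi-likelihood test and its fold change was over 2. Kit, Il3ra and Epor were called higher in Rpl22-/- cells, 3 of 9 against 8.93% of all genes tested. Csf2rb, Il6ra, Csf1r and Flt3 were called lower, 4 of 9 against 8.54% of all genes tested. With libraries scaled to their totals alone, 3 were called higher and 2 lower. The number called higher was 1 without Rpl22+/+ replicate 1, Rpl22+/+ replicate 3, Rpl22-/- replicate 2 or Rpl22-/- replicate 3, and the number called lower was 2 without Rpl22+/+ replicate 2 or Rpl22-/- replicate 1. Csf3r and Csf2ra were not called. The ranges of the genotypes did not overlap for 8 of the 9 genes, against 46.1% of all genes tested, the exception being Csf2ra. The median log2 fold change of the members was 0.47, with the median over all genes tested at 0.066. Levels are given in CPM, the reads of a gene per 1000000 reads of its library after scaling for composition, and the plot of receptor levels by library shows them for every member.

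**Figure D1:**
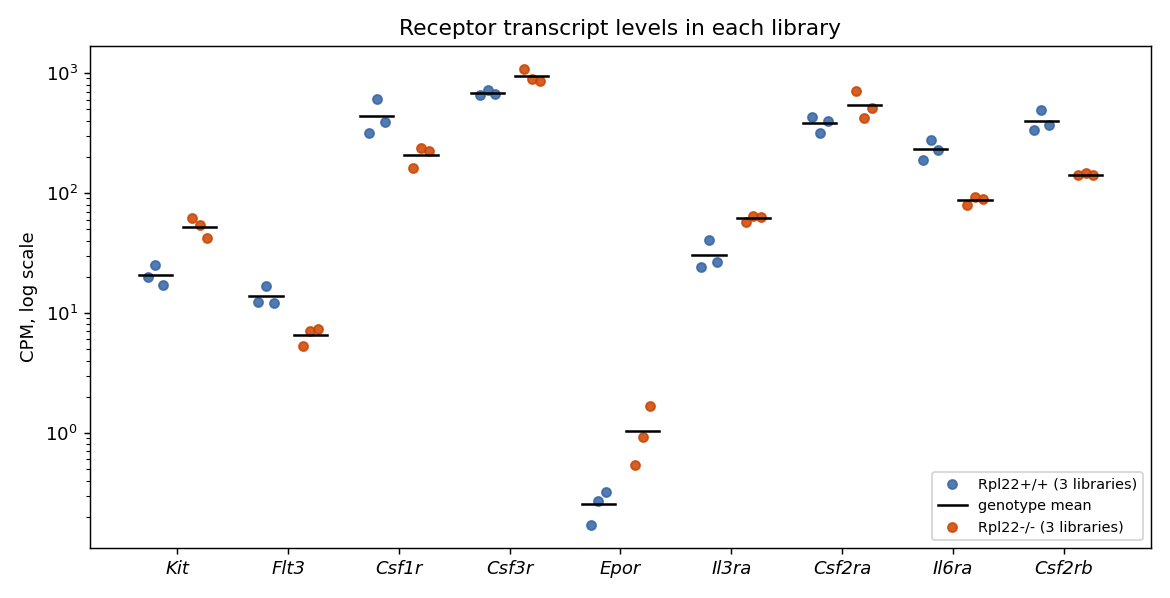
Level of each receptor gene in each library, in CPM on a log axis, for 3 Rpl22+/+ libraries (blue) and 3 Rpl22-/- libraries (orange), with the mean of each genotype as a black line. The levels span from 0.171 CPM for Epor to 1085 CPM for Csf3r, and only the Csf2ra ranges of the genotypes overlap.

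The libraries held 35828500 to 102866127 estimated reads, and Rpl22-/- replicate 1 was the smallest. The Rpl22+/+ replicate 2 library stood apart from the other 2 of its genotype (Pearson's r across genes of 0.926 and 0.934, which genes as non-independent units describe only, against 0.992 between those 2). Rpl22 itself was at 148, 235 and 152 CPM in the Rpl22+/+ libraries and at 58.3, 89.9 and 73.5 CPM in the Rpl22-/- libraries. It was called lower and did not overlap between the genotypes, but reads remained, and the gene total does not say from which part of the gene they came. Of the sort antigens, Itgam, which encodes CD11b, ranged from 1838 to 2085 CPM in Rpl22+/+ and from 815 to 1036 CPM in Rpl22-/- libraries. Ly6g, an antigen that Gr1 antibodies bind, ranged from 149 to 178 CPM and from 11.1 to 15.7 CPM. Both were called lower. Ly6c2, a Ly6C gene whose product Gr1 antibodies can also bind, was at 768, 1280 and 854 CPM in Rpl22+/+ and at 1186, 1678 and 1274 CPM in Rpl22-/- libraries, with overlap, and was not called (log2 fold change 0.51 ± 0.25, edgeR adjusted p = 0.180). Ly6c1 and Ptprc, which encodes CD45, were not called either, so 2 of 5 antigens were. In bulk samples fewer cells of a type and less RNA per cell cannot be told apart.

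Kit is the receptor for stem cell factor, and it is known for its presence on stem cells, early progenitors and mast cells. Its level was 19.7, 25.0 and 16.9 CPM in the 3 Rpl22+/+ libraries and 61.4, 53.8 and 42.2 CPM in the 3 Rpl22-/- libraries. The lowest Rpl22-/- library held more Kit than the highest Rpl22+/+ library. The log2 fold change was 1.35 ± 0.21 (SE, n = 3 per genotype; edgeR adjusted p = 0.0045), a rise of 2.55-fold. This call was kept under 20 of 21 alternative settings, each left-out library included, and was lost when the test asked for a change of more than 2-fold.

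Kit transcripts come in a form with and a form without 12 bases at the 3′ end of exon 9 of 21. The 2 annotated forms are shown because they held 97.0% ± 1.02 (SD, n = 3) of the Kit reads in Rpl22+/+ and 97.0% ± 1.30 in Rpl22-/- cells, and apart from a longer 5′ start of Kit-204 the insert is what sets them apart. It lies inside the coding sequence at chr5:75639147-75639158 on the plus strand of GRCm38, bases 1635 to 1646 of Kit-201, and the choice of splice site is known to alter a short stretch of the extracellular domain next to the membrane. The insert is in capitals, with 24 bases on either side.
Kit-201: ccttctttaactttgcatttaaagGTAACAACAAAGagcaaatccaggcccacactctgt
Kit-204: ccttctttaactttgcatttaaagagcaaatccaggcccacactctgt

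Both forms were present in every library. In TPM, a unit of relative abundance that corrects for transcript length, Kit-201 stood at 2.37, 1.70 and 2.69 in Rpl22+/+ and at 6.23, 5.38 and 5.83 in Rpl22-/- libraries. Kit-204 stood at 2.57, 3.18 and 1.41 and at 9.60, 6.97 and 4.62 TPM. Each form was higher in every Rpl22-/- library than in any Rpl22+/+ library. Of the TPM of the 2 forms together, Kit-201 made up 49.5% ± 15.5 (SD, n = 3) in Rpl22+/+ and 46.2% ± 8.52 in Rpl22-/- cells, and the ranges overlapped. Only 1.28% of the 59-base windows of Kit-201 and 1.79% of those of Kit-204 are absent from the other form, so this split rests on few reads.

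Flt3 is the receptor for Flt3 ligand and marks multipotent and dendritic cell progenitors. It was at 12.3, 16.8 and 12.2 CPM in Rpl22+/+ and at 5.32, 7.08 and 7.30 CPM in Rpl22-/- libraries. All 3 Rpl22-/- libraries lay under the lowest Rpl22+/+ library. The log2 fold change was -1.06 ± 0.21 (edgeR adjusted p = 0.0108), close to the 2-fold threshold. It came to -0.93 without Rpl22+/+ replicate 2 and to -0.93 without Rpl22-/- replicate 1, which ended the call on size while the adjusted p stayed under 0.05 (0.0083 and 0.0400).

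Csf1r, the receptor for M-CSF and interleukin-34, is the defining receptor of monocytes and macrophages. Its level was 318, 606 and 387 CPM in Rpl22+/+ and 160, 235 and 225 CPM in Rpl22-/- libraries. The groups did not overlap, although Rpl22+/+ replicate 2 lay well above the other 2 of its genotype. The log2 fold change was -1.08 ± 0.28 (edgeR adjusted p = 0.0294). It fell to -0.81 without Rpl22+/+ replicate 2, and the edgeR adjusted p rose to 0.0664 without Rpl22+/+ replicate 3, 0.102 without Rpl22-/- replicate 1 and 0.0836 without Rpl22-/- replicate 3, so 4 of the 6 omissions ended the call. Of 14 monocyte and macrophage markers tested, 5 were called higher and 2 lower. Marco, Mrc1, C1qa and C1qc were among those higher, and Ccr2 and Adgre1 were lower. Their summed level ranged from 1572 to 2124 CPM in Rpl22+/+ and from 1510 to 2116 CPM in Rpl22-/- libraries, which overlapped. Ly6c2 carried 47.3% to 79.3% of that sum. The other 13 markers summed to 805 to 953 CPM in Rpl22+/+ and to 324 to 563 CPM in Rpl22-/- libraries, without overlap. That separation rested on Ccr2 (428, 217 and 499 CPM against 139, 127 and 162 CPM), since the 12 markers left without Ly6c2 and Ccr2 summed to 377 to 627 CPM and 184 to 401 CPM, with overlap. Both splits were made after the values were seen. The part of these cells in the Csf1r result was not tested.

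Csf3r, the G-CSF receptor that sustains neutrophil production, was the member with the most reads. Its level was 650, 716 and 670 CPM in Rpl22+/+ and 1085, 885 and 849 CPM in Rpl22-/- libraries. The groups did not overlap, but the log2 fold change of 0.47 ± 0.15 was not called (edgeR adjusted p = 0.0645). Csf3r is on chromosome 4, where the median log2 fold change of the 950 genes tested was 0.44, and 51.8% of those genes had a lower value than Csf3r. Neutrophil markers went the other way, with 9 of 11 called lower (Retnlg, Mmp8, Ly6g and Mmp9 by the most) and a summed level of 66809 to 88552 CPM against 31417 to 42419 CPM. In Csf3r-201, 7.77% of 59-base windows also occur in other genes, so some of its reads may be shared.

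Epor, the erythropoietin receptor of red cell precursors, was barely detected. It had 12, 20 and 24 reads (0.171, 0.270 and 0.321 CPM) in Rpl22+/+ and 20, 92 and 178 reads (0.535, 0.919 and 1.68 CPM) in Rpl22-/- libraries. The groups did not overlap in CPM, and the Rpl22-/- libraries were spread widely. The log2 fold change was 2.05 ± 0.51 (edgeR adjusted p = 0.0250), the steepest and the widest in error among the 9 members. The adjusted p rose to 0.0841 without Rpl22+/+ replicate 1, 0.0665 without Rpl22+/+ replicate 3, 0.0658 without Rpl22-/- replicate 2 and 0.0850 without Rpl22-/- replicate 3. Erythroid markers moved with it: 12 of 13 tested were called higher, with Hbb-bt, Hba-a2, Hba-a1 and Hbb-bs at the front, and the exception was Klf1, named after its values were seen. Ahsp was not matched to the annotation and not analysed here. Their summed level was 90.3 to 137 CPM in Rpl22+/+ and 634 to 1203 CPM in Rpl22-/- libraries, without overlap. The part of red cell precursors in the Epor result was not tested. Epor is on chromosome 9, where the median over 959 tested genes was 0.41.

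Il3ra, the alpha chain that binds interleukin-3, was at 24.3, 40.2 and 26.5 CPM in Rpl22+/+ and at 57.6, 64.1 and 62.6 CPM in Rpl22-/- libraries. The groups did not overlap, and the Rpl22-/- libraries lay close together. Its log2 fold change of 1.02 ± 0.21 (edgeR adjusted p = 0.0135) sat on the 2-fold threshold. It slipped under that threshold without Rpl22+/+ replicate 1 (0.87) or Rpl22-/- replicate 2 (0.99), and came to 0.77 with a correction for GC content and to 0.995 with DESeq2's size factors. The call was kept under 11 of 21 alternatives, the fewest of the called members. The adjusted p rose to 0.0627 without Rpl22+/+ replicate 3 and to 0.0526 without Rpl22-/- replicate 3. Mast cells and basophils are also known to carry Il3ra and Kit. Of their markers, 4 of 6 tested were called lower, Hdc, Prss34, Cpa3 and Fcer1a, and their summed level was 476 to 598 CPM against 10.7 to 18.7 CPM. Hdc, the enzyme that makes histamine, was at 453, 582 and 475 CPM in Rpl22+/+ and at 2.14, 2.76 and 4.01 CPM in Rpl22-/- libraries, or 95.2% to 97.3% and 11.5% to 26.7% of the sum. Without Hdc the sum was 14.1 to 23.0 CPM against 7.98 to 16.5 CPM, and the genotypes overlapped. The others of the list, named after their values were seen, were not called: Ms4a2, a chain of the IgE receptor, was higher without overlap (log2 fold change 1.73 ± 0.65, edgeR adjusted p = 0.0960), Mcpt8 was at -0.18 ± 0.26, and Cma1 had 12 and 49 reads in all and was not tested. The transcripts of Mcpt4, Tpsb2 and Tpsab1 were matched and had 0 reads in every library. The part of mast cells and basophils in the Kit and Il3ra results was not tested.

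Csf2ra, the alpha chain that binds GM-CSF, was at 428, 316 and 394 CPM in Rpl22+/+ and at 702, 420 and 506 CPM in Rpl22-/- libraries. The highest Rpl22+/+ library exceeded the lowest Rpl22-/- library. Its log2 fold change of 0.52 ± 0.23 did not pass (edgeR adjusted p = 0.149). Much of this signal was not from coding transcripts. Retained-intron transcripts took 27.3% ± 8.08 (SD, n = 3) of the Csf2ra reads in Rpl22+/+ and 35.3% ± 5.18 in Rpl22-/- cells, and coding transcripts took 65.0% ± 9.07 and 57.4% ± 5.93. These shares overlapped between the genotypes.

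Il6ra, the alpha chain that binds interleukin-6, was at 188, 279 and 228 CPM in Rpl22+/+ and at 79.5, 92.5 and 88.7 CPM in Rpl22-/- libraries. Every Rpl22-/- library lay below every Rpl22+/+ library by a wide margin. The log2 fold change was -1.41 ± 0.18 (edgeR adjusted p = 0.0020), a fall of 2.66-fold. The call was kept under 20 of 21 alternatives. It ended when a change of more than 2-fold was tested for (edgeR adjusted p = 0.0789).

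Csf2rb, the common beta chain of the interleukin-3, GM-CSF and interleukin-5 receptors, showed the deepest fall of the members. It was at 332, 495 and 371 CPM in Rpl22+/+ and at 141, 145 and 140 CPM in Rpl22-/- libraries. The Rpl22-/- libraries differed among themselves by little, with a coefficient of variation of 2.08%, and all lay far below the Rpl22+/+ libraries. The log2 fold change was -1.49 ± 0.18 (edgeR adjusted p = 0.0017), a fall of 2.81-fold. Csf2rb alone of the 9 members also passed a test for a change of more than 2-fold (edgeR adjusted p = 0.0458). In the main Csf2rb transcript 15.4% of 59-base windows also occur in Csf2rb2, its mouse-specific paralog, so reads could be split between the 2 genes. With both genes summed the log2 fold change was -1.62 (edgeR adjusted p = 0.0012).

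The partner chains did not follow a single pattern. Csf2rb2, a beta chain that serves interleukin-3 alone, was at 63.0, 90.4 and 71.9 CPM in Rpl22+/+ and at 13.0, 13.1 and 13.0 CPM in Rpl22-/- libraries. It fell further than Csf2rb, by 2.53 ± 0.17 on the log2 scale (edgeR adjusted p = 0.00018). Il6st was at 96.5, 98.8 and 109 CPM and at 38.3, 47.4 and 53.2 CPM. It was lower by a log2 fold change of -1.13 ± 0.16 (edgeR adjusted p = 0.0030), and the groups did not overlap. Il5ra, the interleukin-5 alpha chain, was under 1 CPM in all libraries and was not called (log2 fold change 0.78 ± 0.56, edgeR adjusted p = 0.362). The plot of fold changes sets the members beside these partners.

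**Figure D2:**
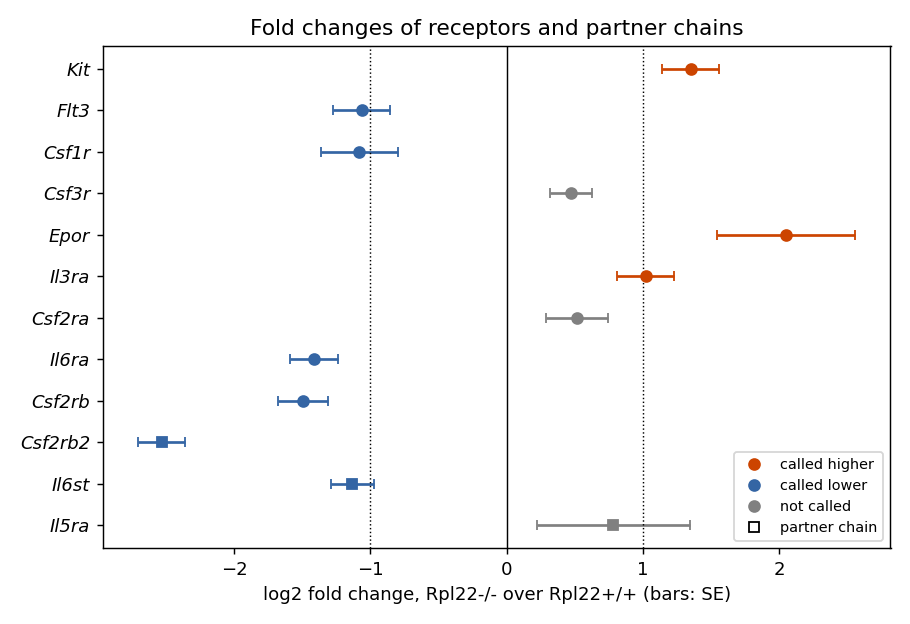
Log2 fold change (Rpl22-/- over Rpl22+/+) with its SE for the 9 receptors (circles) and 3 partner chains (squares), colored by call, with dotted lines at 2-fold. Both beta chains and both interleukin-6 receptor chains lie on the lower side, at -1.13 to -2.53, while Il3ra lies at 1.02 and Csf2ra at 0.52.

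Because the chains of a receptor act together, their proportion was also compared. The ratios use the same reads as the fold changes of the single chains and are not independent of them. Within a library, the TPM ratio of Il3ra to Csf2rb was 0.263, 0.248 and 0.223 in Rpl22+/+ and 1.36, 1.64 and 1.56 in Rpl22-/- libraries. The beta chain exceeded the alpha chain in every Rpl22+/+ library, and the order was turned in every Rpl22-/- library. The log2 ratio rose by 2.63, with an SD of 0.12 and 0.14 within the genotypes. The ratio of Csf2ra to Csf2rb was 5.33, 2.21 and 4.01 in Rpl22+/+ and 19.6, 11.2 and 14.01 in Rpl22-/- libraries, a log2 difference of 2.01. These groups did not overlap in either ratio. The Csf2ra ratio depends on which transcripts are counted: with coding transcripts alone it was 2.08, 1.12 and 1.55 in Rpl22+/+ and 7.10, 5.03 and 5.82 in Rpl22-/- libraries, still without overlap and with a log2 difference of 1.95. The Il3ra ratio on coding transcripts was 0.238, 0.245 and 0.201 against 1.25, 1.44 and 1.39. The ratio of Il6ra to Il6st was 2.51, 3.45 and 2.65 against 2.58, 2.08 and 1.81, and these ranges overlapped. Over the 3 ratios compared, the exact two-sided permutation p was 0.1 for the first 2, the smallest that 3 against 3 libraries can give, and 0.2 for the third, or 0.15, 0.15 and 0.2 after Benjamini-Hochberg adjustment of these permutation p-values.

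**Figure D3:**
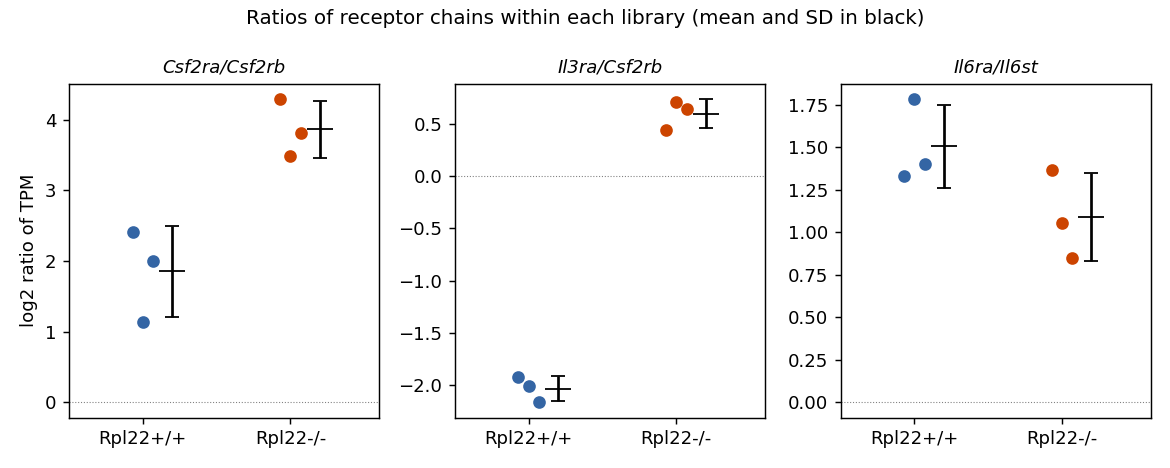
Log2 ratio of the TPM of an alpha chain to that of its signaling partner in each library, with the mean and SD of each genotype in black and 3 libraries per genotype. Il3ra/Csf2rb moves from a mean of -2.03 to 0.60 and Csf2ra/Csf2rb from 1.85 to 3.86, without overlap, whereas the Il6ra/Il6st values overlap.

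Levels between genes were compared per length, in TPM. In Rpl22+/+ cells the means over 3 libraries were, in falling order, Csf2ra at 449 TPM, Csf3r at 338, Csf1r at 163, Csf2rb at 121, Il6ra at 57.6, Il3ra at 29.4, Kit at 5.85, Flt3 at 4.63 and Epor at 0.191. The library ranges of Csf2ra and Csf3r overlapped, as did those of Csf1r and Csf2rb, and no other neighbors did. In Rpl22-/- cells the order of mean TPM was Csf2ra at 665, Csf3r at 492, Csf1r at 77.0, Il3ra at 66.6, Csf2rb at 43.9, Il6ra at 22.4, Kit at 15.1, Flt3 at 2.39 and Epor at 0.888. Il3ra thus passed both Csf2rb and Il6ra, and the neighbors that overlapped were Csf2ra with Csf3r and Csf1r with Il3ra. When coding transcripts alone were summed, Csf3r (245 TPM in Rpl22+/+ and 369 in Rpl22-/-) came before Csf2ra (175 and 235) in both genotypes, with no overlap, and Kit and Flt3 overlapped in Rpl22+/+ cells.

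The spread within a genotype differed among the members. In Rpl22+/+ cells the coefficient of variation of the CPM ran from 4.94% for Csf3r to 34.4% for Csf1r. In Rpl22-/- cells it ran from 2.08% for Csf2rb to 55.8% for Epor. The plot with each library left out shows which members depended on a single library.

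**Figure D4:**
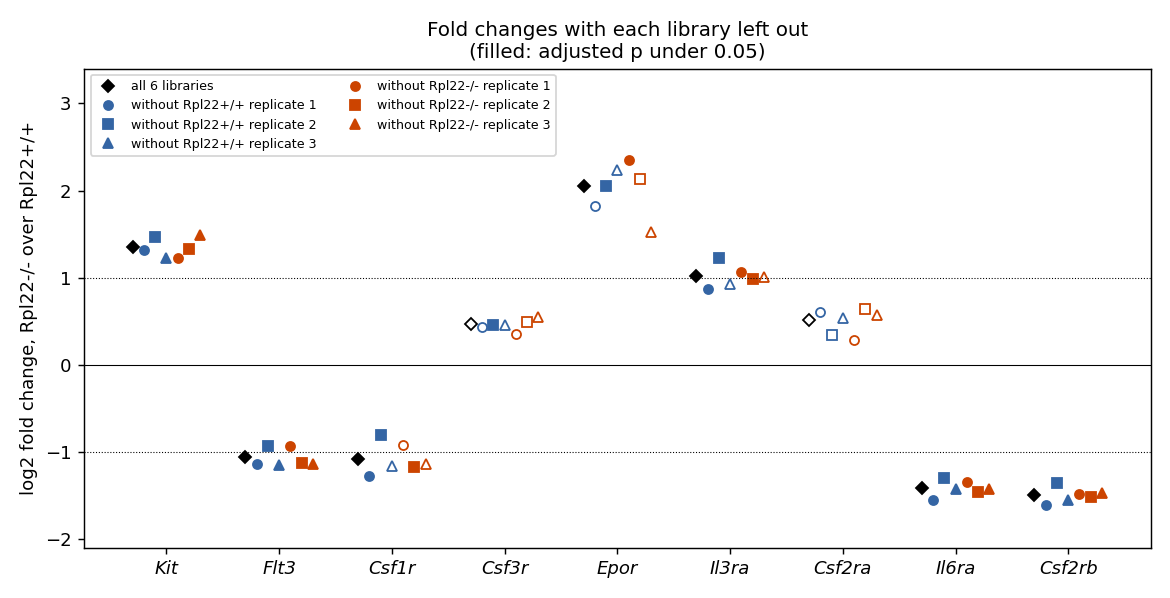
Log2 fold change (Rpl22-/- over Rpl22+/+) of each receptor with all 6 libraries (black) and with each library left out in turn, filled where the edgeR adjusted p was under 0.05, with dotted lines at 2-fold. Kit, Il6ra and Csf2rb stayed beyond 2-fold and filled throughout, and no receptor changed direction.

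The share of a gene's TPM held by its main transcript was compared for the 8 members with a mean of at least 1 TPM. Only transcripts matched to the annotation were counted, so other forms of a gene are missing from these shares. Il3ra-201 held 47.9%, 57.3% and 55.4% of the Il3ra TPM in Rpl22+/+ and 42.0%, 44.0% and 43.0% in Rpl22-/- libraries. Il6ra-201 held 69.4%, 71.1% and 71.1% against 64.8%, 66.0% and 69.1%, the rest being Il6ra-202. Csf3r-201 held 52.9%, 51.9% and 51.4% against 59.1%, 57.1% and 54.6%. These 3 shares did not overlap between the genotypes, and each had an exact two-sided permutation p of 0.1, the smallest possible, or 0.267 adjusted over the 8 tests. Among coding transcripts, Csf3r-201 held 73.3%, 68.7% and 72.7% against 79.2%, 75.0% and 73.2%, which overlapped (exact permutation p = 0.2). Only 0.709% of the 59-base windows of Csf3r-201 are absent from Csf3r-202 and 1.80% of those of Il6ra-201 from Il6ra-202, so few reads belong to these main forms alone, while 61.6% of the windows of Il6ra-202 are its own. The shares of the main transcripts of Kit, Flt3, Csf1r, Csf2ra and Csf2rb overlapped, with exact permutation p-values from 0.3 to 0.6. The share of Csf1r-201 was 82.0% ± 4.37 (SD, n = 3) of the TPM in Rpl22+/+ and 90.5% ± 9.31 in Rpl22-/- cells, a difference of 8.50 percentage points that came to 0.720 on estimated reads.

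RefSeq promoters, from 250 bases before to 50 bases after the gene start, were listed in GRCm38.p6 for 7 of the 9 members. The 5 belonging to called members are printed so that the genes that rose (Kit, Epor, Il3ra) can be read beside those that fell (Flt3, Il6ra). The capitals mark matches, on either strand, to the binding motifs searched: TTCNNNGAA for STAT factors, GAGGAA for PU.1, AGATAA for GATA factors, TGTGGT for RUNX factors and TTGCNNAA for C/EBP factors. None of the 5 motifs overlaps another in these windows. The Kit window is chr5:75574737-75575036 (plus strand), the Epor window chr9:21963527-21963826 (minus strand), the Il3ra window chr14:14346245-14346544 (plus strand), the Flt3 window chr5:147400440-147400739 (minus strand) and the Il6ra window chr3:89913147-89913446 (minus strand), each read 5′ to 3′ along its gene. Il3ra is on the plus strand in this build but on the minus strand in the GRCm39 positions above. RefSeq lists a second Kit window that starts 4 bases further on and holds the same PU.1 match, and the window with the lower start is shown.
Kit promoter: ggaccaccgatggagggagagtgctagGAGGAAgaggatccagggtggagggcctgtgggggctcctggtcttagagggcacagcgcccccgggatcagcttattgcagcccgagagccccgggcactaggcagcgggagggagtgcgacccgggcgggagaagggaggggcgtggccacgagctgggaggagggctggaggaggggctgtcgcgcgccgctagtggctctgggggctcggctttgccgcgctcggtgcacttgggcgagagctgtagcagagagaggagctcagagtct
Epor promoter: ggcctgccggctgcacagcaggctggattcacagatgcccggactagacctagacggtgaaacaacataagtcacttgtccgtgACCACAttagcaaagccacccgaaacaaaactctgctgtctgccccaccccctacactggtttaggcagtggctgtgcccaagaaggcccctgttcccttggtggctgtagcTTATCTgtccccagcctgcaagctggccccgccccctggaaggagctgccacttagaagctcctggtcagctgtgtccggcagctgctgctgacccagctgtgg
Il3ra promoter: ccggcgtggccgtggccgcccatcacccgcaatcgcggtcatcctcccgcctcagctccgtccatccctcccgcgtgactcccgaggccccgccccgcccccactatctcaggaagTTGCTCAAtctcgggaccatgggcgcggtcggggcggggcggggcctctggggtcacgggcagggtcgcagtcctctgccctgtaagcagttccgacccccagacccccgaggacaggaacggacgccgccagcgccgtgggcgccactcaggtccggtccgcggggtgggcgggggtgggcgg
Flt3 promoter: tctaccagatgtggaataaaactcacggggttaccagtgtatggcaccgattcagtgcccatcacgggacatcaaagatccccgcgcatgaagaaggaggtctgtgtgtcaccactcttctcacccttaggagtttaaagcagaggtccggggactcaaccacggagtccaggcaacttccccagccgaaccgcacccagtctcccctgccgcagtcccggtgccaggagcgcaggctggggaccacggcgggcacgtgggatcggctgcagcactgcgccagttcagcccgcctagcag
Il6ra promoter: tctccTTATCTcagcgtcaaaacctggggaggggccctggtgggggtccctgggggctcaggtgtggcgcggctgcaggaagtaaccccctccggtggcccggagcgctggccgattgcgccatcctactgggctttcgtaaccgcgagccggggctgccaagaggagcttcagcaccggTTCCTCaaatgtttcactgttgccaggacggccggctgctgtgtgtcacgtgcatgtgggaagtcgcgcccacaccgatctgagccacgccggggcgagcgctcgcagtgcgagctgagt

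No motif was common to all promoters of either direction. Kit held 1 PU.1 match and Il6ra held 1 PU.1 and 1 GATA match, Epor held 1 GATA and 1 RUNX match, Il3ra held 1 C/EBP match, and Flt3 held none of the 5. The GATA match of Epor lay 54 to 49 bases before the gene start. Among 32851 RefSeq promoters of this length, 28.3% held the PU.1 motif, 16.8% the RUNX motif, 11.2% the GATA motif, 10.8% the C/EBP motif and 8.30% the STAT motif. A match is a run of letters and says nothing of binding in these cells.

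For each called member, the genes whose centred log2 CPM profile over the 6 libraries lay nearest were listed among 12949 candidate coding genes. The log2 was taken after adding 0.1 CPM, which shrinks the differences of genes near that level. Kit was nearest to Sardh and Efemp2 (root mean square difference 0.090 and 0.103), Il3ra to Mrto4 and Rapsn (0.038 and 0.040) and Epor to Tal1 and Arc (0.130 and 0.200). Csf2rb was nearest to Itgal and Hcls1 (0.042 and 0.058), Il6ra to Prr13 and Snrpn (0.053 and 0.068), Csf1r to Sod1 and Tmem106a (0.053 and 0.061) and Flt3 to Evl and Ccdc40 (0.033 and 0.046). The fitted log2 fold changes of the low genes Sardh (2.86, with means of 0.0275 and 0.213 CPM) and Snrpn (-2.25, with means of 0.364 and 0.0730 CPM) were far from the 1.35 of Kit and the -1.41 of Il6ra, so these 2 are near by this measure alone. The measure of log2 CPM likeness used the same 6 libraries as the fold changes and carries no test.

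Of the genes around the receptors, 142 were listed as partners, ligands, signaling genes, regulators, targets, other receptors and shedding enzymes, and 130 were tested. Of these, 12 (9.23%) were called higher and 17 (13.1%) lower, with 8.93% and 8.54% of all genes tested as the background, and scaling to library totals alone gave 15 and 14. Their median log2 fold change was -0.27. The plot of the pathway lists shows how the genes were distributed.

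**Figure D5:**
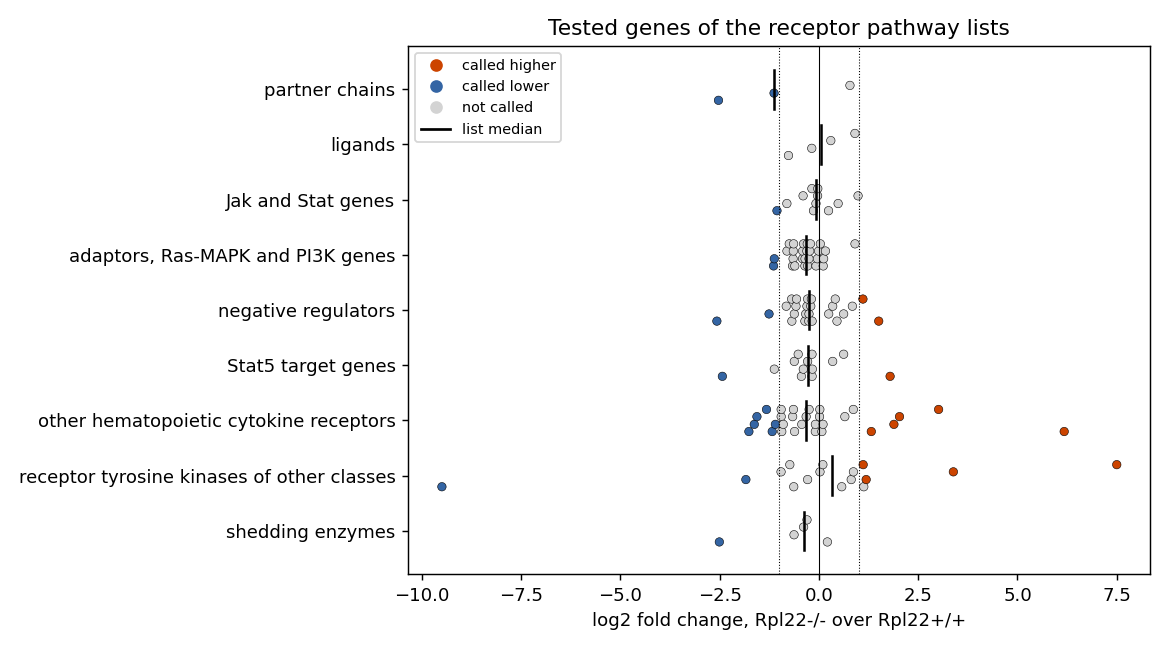
Log2 fold change (Rpl22-/- over Rpl22+/+) of every tested gene of the 9 pathway lists, colored by call, with the list median as a black bar and dotted lines at 2-fold. The list medians lie between -1.13 (partner chains) and 0.34 (other receptor tyrosine kinases), and the point furthest left, Pdgfrb, is a fitted value for a gene with no reads in the Rpl22-/- libraries.

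The ligands of the receptors ranged from no reads to 27.7 TPM, the mean of Flt3l in Rpl22+/+ cells, with Csf1 next at 5.42 TPM. Of 10, 4 were tested, and none was called by edgeR, DESeq2 or limma-voom, with 0 at an unadjusted p under 0.05. Flt3l was at 26.1, 16.2 and 21.8 CPM in Rpl22+/+ and at 24.8, 14.5 and 17.3 CPM in Rpl22-/- libraries (log2 fold change -0.18 ± 0.26), and Csf1 was at 13.1, 18.9 and 14.2 CPM and at 5.43, 7.27 and 14.3 CPM (-0.77 ± 0.37), with overlap in both. Kitl and Il6 reached no more than 0.294 CPM in any library. Csf2 had 2 reads in all 3 Rpl22+/+ libraries and 22 in all 3 Rpl22-/- libraries, Csf3 had 8 and 22, Il34 had 1 and 1, and Il3, Il5 and Epo, whose transcripts were matched, had 0. Per unit of depth, the Csf2 ratio was 9.90 (exact 95% interval 2.43 to 86.8), which covers counting error only and rests on 2 reads.

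Of 11 Jak and Stat genes tested, 2 rose and 3 fell at an edgeR adjusted p under 0.05 whatever the fold. Over all genes tested, 13.7% rose and 13.8% fell by that measure. Stat5b was the 1 gene called, 9.09% of the list against 8.54% of all genes tested called lower. It was at 156, 230 and 171 CPM in Rpl22+/+ and at 87.8, 85.6 and 93.8 CPM in Rpl22-/- libraries, without overlap (log2 fold change -1.06 ± 0.18, edgeR adjusted p = 0.0059). Stat5b is a Stat5 protein activated by interleukin-3, GM-CSF and erythropoietin receptors. Jak3, the kinase of receptors with the common gamma chain, was at 111, 137 and 105 CPM and at 263, 216 and 221 CPM, a rise without overlap just short of 2-fold (log2 fold change 0.98 ± 0.16, edgeR adjusted p = 0.0054). Stat2 (0.48 ± 0.12) was the other gene higher, and Stat6 (-0.81 ± 0.16) and Jak1 (-0.40 ± 0.12) were lower, all under 2-fold and named with Jak3 after their values were seen. Of 28 adaptor, Ras-MAPK and PI3K genes, 2 were called, both lower (7.14%, against 8.54% of all genes tested). Both encode catalytic subunits of PI3 kinase: Pik3cb (log2 fold change -1.14 ± 0.11) and Pik3cg (-1.12 ± 0.12), neither of which overlapped between the genotypes.

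Among 25 tested negative regulators, 2 were called in each direction (8% each), near the 8.93% higher and 8.54% lower of all genes tested. Dok2, an adaptor that restrains Ras signaling, was at 41.0, 56.1 and 43.1 CPM in Rpl22+/+ and at 7.22, 8.47 and 7.87 CPM in Rpl22-/- libraries, a fall by 2.57 ± 0.18 on the log2 scale (edgeR adjusted p = 0.00019). Ptpn1, a tyrosine phosphatase that acts on Janus kinases, was lower (log2 fold change -1.26 ± 0.21). Spry2, an inhibitor of receptor tyrosine kinase signaling to MAPK, rose from 5.27, 8.29 and 6.27 CPM to 17.0, 15.8 and 23.5 CPM (log2 fold change 1.51 ± 0.24, edgeR adjusted p = 0.0051). Socs5, of the cytokine signaling suppressors, was higher by a log2 fold change of 1.11 ± 0.15.

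Of 13 tested genes known as targets of Stat5, most of them induced and Bcl6 repressed, 1 was called in each direction, a share (7.69%) under the background of all genes tested. The gene called higher was the growth regulator Myc (30.3, 44.7 and 33.3 CPM against 130, 128 and 117 CPM, log2 fold change 1.79 ± 0.18). Il2ra, the alpha chain of the interleukin-2 receptor, was called lower (3.18, 2.66 and 2.78 CPM against 0.722, 0.299 and 0.595 CPM, -2.43 ± 0.37). The median log2 fold change of the 13 was -0.29.

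Other hematopoietic cytokine receptors were called in both directions, with 5 of 29 higher and 6 lower (17.2% and 20.7%, against 8.93% and 8.54% of all genes tested). The growth hormone receptor Ghr had 7 reads in all Rpl22+/+ libraries together and 571 in the Rpl22-/- libraries, a ratio per unit of depth of 73.4 (exact 95% interval 35.4 to 183, counting error only). Lepr, the leptin receptor, had 12 and 108 reads and Osmr, the oncostatin M receptor, 7 and 33. Il11ra1, the interleukin-11 alpha chain, which also signals through Il6st, was at 8.12, 9.40 and 8.08 CPM in Rpl22+/+ and at 31.9, 31.9 and 31.0 CPM in Rpl22-/- libraries, a rise without overlap (log2 fold change 1.89 ± 0.13, edgeR adjusted p = 0.00023). The 2 chains of the interleukin-18 receptor, Il18r1 (log2 fold change -1.76 ± 0.38) and Il18rap (-1.63 ± 0.27), were lower. So were Il1rl1, the interleukin-33 receptor (-1.56 ± 0.38), and the decoy receptor Il1r2 (-1.32 ± 0.15).

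Of 16 tested receptor tyrosine kinases of other classes, 4 were called higher and 2 lower (25% and 12.5%, against 8.93% and 8.54% of all genes tested). Tie1, an orphan receptor best known from endothelium, was at 0.498, 0.311 and 0.321 CPM in Rpl22+/+ and at 74.5, 68.8 and 62.0 CPM in Rpl22-/- libraries (log2 fold change 7.50 ± 0.26). The ephrin receptor Epha2 went from 2.04, 3.15 and 2.20 CPM to 16.2, 25.4 and 35.6 CPM (3.39 ± 0.35). Kdr and Mertk were called higher at no more than 1.32 CPM in any library. Pdgfrb, a class III receptor like Kit, Flt3 and Csf1r, had 257 reads in the Rpl22+/+ libraries and 0 in the Rpl22-/- libraries, so it was at least 95.2-fold lower against a floor of 3 counts over the group. Mst1r was lower by a log2 fold change of -1.84 ± 0.35. Among 5 shedding enzymes, Adam8 was the 1 gene called: 353, 405 and 379 CPM in Rpl22+/+ and 75.9, 70.5 and 53.3 CPM in Rpl22-/- libraries (log2 fold change -2.51 ± 0.18). Adam10 and Adam17, the proteases known to release the ectodomains of Il6ra and Csf1r, were not called and are named for this role after their values were seen.

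Marker lists of other cells give the setting of these values. T cell markers were lower (8 of 9 called, summed 62.6 to 82.9 CPM against 20.3 to 25.5 CPM), and so were 2 of 5 tested eosinophil markers (31.7 to 32.5 CPM against 9.73 to 11.97 CPM). Siglecf and Ear2, the 2 called, carried 81.9% to 88.3% of the eosinophil sum in Rpl22+/+ libraries, and the rest summed to 3.70 to 5.75 CPM against 4.06 to 6.18 CPM, with overlap. Of 12 dendritic cell markers, 1 was called lower (698 to 1161 CPM against 370 to 652 CPM). The class II genes H2-Ab1 and H2-Eb1, which B cells also express, made up 88.3% to 95.1% of that sum, and the other 10 markers summed to 48.3 to 56.9 CPM against 43.2 to 66.9 CPM, with overlap. Of 7 B cell markers, 0 were called by edgeR, DESeq2 or limma-voom, with 3 at an unadjusted edgeR p under 0.05 (600 to 756 CPM against 376 to 577 CPM). Megakaryocyte markers had 1 of 6 called higher, Vwf, and summed to 4.64 to 6.35 CPM against 13.7 to 13.9 CPM, or without Vwf to 3.39 to 5.25 CPM against 4.30 to 4.89 CPM, with overlap. Of 8 stem and progenitor markers, Mecom and Cd34 were called higher and Mycn and Hlf lower (145 to 153 CPM against 252 to 306 CPM). The part of other cells in the receptor results was not tested.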

How the data were processed

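Poly(A) RNA extracted with NucleoZOL was made into libraries with the Illumina stranded mRNA kit and sequenced on an Illumina NextSeq instrument. The deposited tables give, for every transcript of each library, an estimated count and a TPM value, made by the authors with Trimmomatic and Salmon and the GRCm39 build. Their versions and the transcript set are not given in the sources used here. Per the file headers, a further deposited table of the authors holds gene positions, base means, fold changes and p-values, of which the positions and base means (a signal averaged over all libraries after the authors' size-factor scaling) alone were used.

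Transcripts were summed to genes through GENCODE vM21, which matched 136036 of 276623 transcript identifiers and 98.0% to 98.1% of estimated reads; unmatched transcripts were left out. Size-factor means of the members came to 0.947 to 0.998 of the authors' base means. Rounded sums were tested with edgeR 4.0.16 (quasi-likelihood F test, TMM, filterByExpr, genotype alone) in R 4.3.3 over 16656 genes, and a call needed an adjusted p under 0.05 and an absolute log2 fold change above 1. The SE of a log2 fold change was derived from this test, as the absolute log2 fold change over the square root of its F value. Ratios and isoform shares were tested by exact permutation (scipy 1.17.1). Alternatives used DESeq2 1.42.0 and limma 3.58.1, other scalings and filters, a GC correction, coding transcripts, a replicate block and each library left out. The fits were also run on simulated counts, drawn from edgeR's own means and dispersions, which cannot rank edgeR against the other tests. Intervals on reads cover counting error only.

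The members and lists were chosen with earlier results of these data known. All members and every partner chain and ligand were named. From each other list the called genes of largest fold were named, up to 4 in each direction. Called T cell and dendritic cell markers were counted without being named. For likeness the 2 nearest coding genes were named, with 0.1 CPM added before the log. The groups came from the genotype in the labels. No promoter was printed for Csf1r and Csf2rb, and no protein sequence was used here.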

Additional observations from a re-analysis of the deposited data

How the results depend on the processing

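Of the 9 receptors, Csf2rb kept its call under all 22 alternatives tried, Kit and Il6ra under 20 of 21 each, Flt3, Csf1r and Epor under 15 of 21 each, and Il3ra under 11 of 21, lost with DESeq2's size factors (0.995) and test (0.996) among others. No receptor changed direction under any alternative. The number called higher was 3, and 1 to 3 with a library left out; the number called lower was 4, and 2 to 4 with a library left out. A test against a minimum fold of 2 in edgeR left 0 called higher (2 at an unadjusted p under 0.05, and 2 and 3 called by DESeq2 and limma-voom without it) and 1 called lower, and took the 130 pathway genes from 12 higher and 17 lower to 5 and 5, since it asks more of each gene. Scaling to library totals alone left 2 called lower, with Flt3 at -0.92 and Csf1r at -0.93 on the log2 scale, and moved the median over all genes from 0.066 to 0.19. Limma on log2(TPM + 1), a scale that understates low genes, called 7 pathway genes lower, and with a library left out the pathway counts were 8 to 12 higher and 16 to 19 lower. Csf3r was under an adjusted p of 0.05 in 7 of 21 alternatives but never over 2-fold. The isoform share difference of Csf2rb was -0.964 percentage points on estimated reads against 3.90 on TPM, that of Csf1r 0.720 against 8.50, that of Kit 3.07 against 6.44 and that of Csf2ra -7.94 against -4.23 (-0.595 on coding transcripts), and that of Csf2ra ran from -6.60 to 0.0033 with a library left out (0.0033 without Rpl22+/+ replicate 2). The cause was not tested. With a library left out, the share difference ran from 0.943 to 11.4 for Kit, -1.28 to -0.387 for Flt3, 5.03 to 13.8 for Csf1r and 2.24 to 7.16 for Csf2rb. Flt3 has 1 coding transcript, so its share among coding transcripts could not vary. The Epor call rests on 12 to 178 reads per library.

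With a replicate block the counts were 3 members higher and 4 lower, as without it, and 10 pathway genes higher and 18 lower; Csf2ra came to an adjusted p of 0.0444, still under 2-fold. The block changed no call of a member. Over the genes tested, deviations of same-numbered libraries correlated at 0.479, 0.634 and 0.0974, and at 0.570, 0.715 and 0.129 over genes averaging at least 50 counts. Rpl22+/+ replicate 3 correlated best with Rpl22-/- replicate 1 (0.357), so the libraries share a number and no pairing was used.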
